A study of Mus musculus with 6 samples.

Results

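The comparison was made between the 2 high dose arrays, from mice that drank venlafaxine at 100 mg per kg body weight per day, and the 2 low dose arrays, from mice at 30 mg per kg per day. These are 4 of the 6 arrays of the series; the other 2 come from control mice at 0 mg per kg per day. All mice were male and of the strain DBA/2, were housed alone, and took the drug in their drinking water for 30 days; their age is not given in the sources used here. Each array held pooled RNA of hippocampi from a dose group of 10 animals, and each group had 1 left and 1 right pool. Pools carry no animal's own value, so the spread within a group is that between pools and may be technical, and the sources used here do not say whether a group's left and right pools came from the same brains. Gene expression was read with Affymetrix mouse expression arrays, on which sets of short probes report the RNA level of a gene as a log2 value, so that a difference of 1 is a doubling. Of 18193 genes with a probe set assigned to a single symbol, 11743 were above the array median on at least 2 arrays and were tested.

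Venlafaxine blocks the reuptake transporters of serotonin and, at higher doses, of noradrenaline, and it is used as an antidepressant. The hippocampus receives fibres of both transmitters, and its granule and pyramidal cells are the usual site in which slow effects of antidepressants are looked for. Genes of protein folding are described first below. Cells hold a set of chaperones in the cytosol, driven by heat shock factors, and another in the endoplasmic reticulum, driven by the unfolded protein response, whose sensors are Ern1, Eif2ak3 and Atf6 and whose effectors include Xbp1, Hspa5 and the degradation ligase Syvn1.

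The arrays differed in more than dose. High dose replicate 1 was hybridized on the same date as both low dose arrays and control replicate 1, whereas high dose replicate 2 shared a later date with control replicate 2. Replicate 1 of the high dose and replicate 2 of the low dose were left pools; high dose replicate 2 and low dose replicate 1 were right pools. The RNA integrity number (RIN, a quality score of the RNA) was 8.5 and 8.2 for the high dose, against 9.1 and 8.9 for the low dose and 8.7 and 7.9 for the control mice. The difference between the 3′ and 5′ control probe sets of Actb, which widens as RNA breaks down, was 1.10 and 1.38 on the high dose arrays, against 1.07 and 1.05 on the low dose arrays and 1.19 and 1.50 on the control arrays. Both arrays of the later date thus had the lowest RIN and the widest 3′ to 5′ difference. Across probe sets, high dose replicate 2 correlated more closely with control replicate 2 (r = 0.9972) than with high dose replicate 1 (r = 0.9949), while high dose replicate 1 and the low dose arrays correlated at 0.998. The list of dentate granule cell markers had 16 of 16 members among the tested genes. That of CA1 pyramidal cells had 11 of 13 and that of CA2 and CA3 pyramidal cells 17 of 18. Lists of other regions passed the filter about as often (thalamus 17 of 19, neocortex 20 of 24, striatum 14 of 18), so these counts do not identify the tissue. In pooled tissue, fewer cells of a type and less RNA per cell cannot be told apart.

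No gene passed the test between the doses. With limma over all 6 arrays (a moderated linear model, 2 arrays per group, Benjamini-Hochberg adjustment at 0.05), 0 of 11743 genes (0.0%) were called, and the smallest adjusted p was 0.258, for Hspa1b. At an unadjusted p under 0.05 there were 729 genes (6.21%), of which 700 (5.96%) were lower and 29 (0.247%) higher at the high dose. Most of the distribution lay below 0: the mean was lower at the high dose for 9068 genes (77.2%), and the median difference over all tested genes was -0.066. On the first date alone the median was -0.065, and for high dose replicate 2 it was -0.067. The levels of both high dose arrays lay below both low dose arrays for 4385 genes (37.3%) and above both for 467 (3.98%). Low dose replicate 2 was the brighter of its pair for 9840 of the tested genes, and after quantile normalization, which gives every array the same distribution, the median of the difference was -0.0032. Differences below are therefore set beside -0.066, and counts of lower means are to be read beside 77.2%. The median absolute difference between arrays of a group was 0.083 at the high dose and 0.10 at the low dose, and with 2 arrays per group the number of arrays limits the precision. In the words used below, a difference is high dose minus low dose, given with its standard error (SE), and none of the genes named passed the test.

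**Figure D1:**
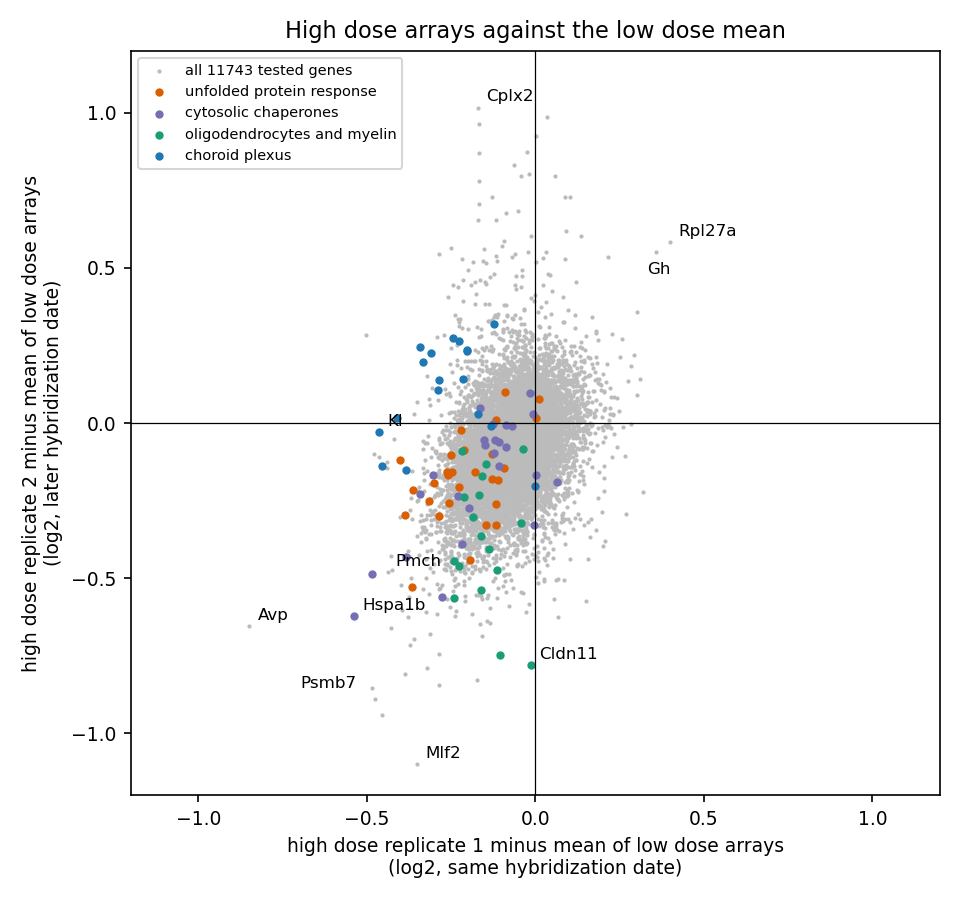
Each of the 11743 tested genes is placed by the log2 difference of high dose replicate 1 (same hybridization date as the low dose arrays, x axis) and of high dose replicate 2 (later date, y axis) from the mean of the 2 low dose arrays; members of 4 gene lists are coloured. Avp and Hspa1b lie far down on both axes, Gh and Rpl27a far up on both, and Cplx2, Mlf2 and Cldn11 stand apart mainly on the later date.

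As a list, genes of the unfolded protein response were lower on both high dose arrays than on the low dose arrays. Both low dose arrays were of the first date, so the later high dose array differed from them in date as well as dose. Of 28 tested members 25 had the lower mean, the median difference was -0.21, and in 20 the high and low dose arrays did not overlap, with high below low; the share of all tested genes was 37.3%. The same-date array gave a median of -0.22 and the later array -0.17, against -0.065 and -0.067 over all genes. In 13 of the 28 (46.4%) both high dose arrays were the lowest of all 6 arrays, which held for 1232 of all tested genes (10.5%). Relative to the low dose mean, the median of the list was -0.22 and -0.17 on the high dose arrays, -0.083 and 0.083 on the low dose arrays, and -0.0094 and -0.093 on the control arrays. At an unadjusted p under 0.05 the list held 11 lower genes and 0 higher, where 5.96% of all genes were lower. After quantile normalization the median was -0.12, with 24 of 28 lower. All 28 members were higher on low dose replicate 2 than on replicate 1, and the median was -0.28 without low dose replicate 1 and -0.13 without low dose replicate 2, beside -0.12 and -0.021 for all genes; with the mean of each gene's probe sets it was -0.14.

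Promoters of the list are shown because most of its members lay on the same side and because 1 motif is common among them. The ER stress element, spelled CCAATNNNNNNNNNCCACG and searched on both strands, is the textbook binding element of Atf6 and Xbp1. RefSeq promoter windows (GRCm38.p6, 250 bases before to 50 after a gene's start) were held for 25 of the 28 tested members, and 9 of these genes (36%) held the element: Hspa5, Hsp90b1, Pdia6, Calr, Canx, Dnajc3, Creld2, Syvn1 and Ero1b. Of all 27025 genes with a window 37 held it (0.137%), in 39 of 32851 windows (0.119%), and in 0 of these did it overlap another motif searched. The 250 bases before the start of 4 of these genes are given 5′ to 3′ on the gene's strand, with the element or its reverse complement in capitals.
Hspa5, chr2:34771840-34772089, forward strand: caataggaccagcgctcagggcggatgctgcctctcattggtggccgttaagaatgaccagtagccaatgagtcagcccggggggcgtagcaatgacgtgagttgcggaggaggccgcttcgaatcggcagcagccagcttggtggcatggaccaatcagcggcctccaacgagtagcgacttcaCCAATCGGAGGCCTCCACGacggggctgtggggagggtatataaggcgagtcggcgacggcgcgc
Syvn1, chr19:6046326-6046575, forward strand: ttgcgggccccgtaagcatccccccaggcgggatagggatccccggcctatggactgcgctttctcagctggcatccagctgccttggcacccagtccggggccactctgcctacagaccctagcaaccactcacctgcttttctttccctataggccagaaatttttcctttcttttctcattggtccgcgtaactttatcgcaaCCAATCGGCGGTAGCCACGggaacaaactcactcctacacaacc
Creld2, chr15:88819396-88819645, forward strand: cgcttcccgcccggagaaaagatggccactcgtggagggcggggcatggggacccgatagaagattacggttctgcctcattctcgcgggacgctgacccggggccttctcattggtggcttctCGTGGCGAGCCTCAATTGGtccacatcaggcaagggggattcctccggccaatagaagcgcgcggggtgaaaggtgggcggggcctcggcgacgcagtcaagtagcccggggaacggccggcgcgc
Calr, chr8:84846932-84847181, reverse strand: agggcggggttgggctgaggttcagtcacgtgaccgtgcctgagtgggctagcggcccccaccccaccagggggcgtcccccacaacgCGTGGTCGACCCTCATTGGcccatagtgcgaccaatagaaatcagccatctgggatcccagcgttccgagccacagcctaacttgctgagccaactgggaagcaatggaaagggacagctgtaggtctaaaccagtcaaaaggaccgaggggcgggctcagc
All 9 genes with the element had the lower mean in high dose hippocampus, their median being -0.24, and of the 16 with a window and no such letters 14 did, with a median of -0.17. A match describes letters in a window, and no binding was measured. The list holds known genes of this response, so the share with the element is no result of the dose comparison.

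The chaperone Hspa5 (BiP), which holds unfolded chains in the endoplasmic reticulum, had 12.65 and 12.94 on the high dose arrays, against 12.91 and 13.20 on the low dose arrays and 12.96 and 13.07 on the control arrays. Its difference was -0.26 ± 0.12, and the groups overlapped, since high dose replicate 2 lay between the low dose arrays; on the first date alone the difference was -0.40. Syvn1, the ubiquitin ligase of degradation from the endoplasmic reticulum, had 10.01 and 9.84 on the high dose arrays, against 10.29 and 10.45 on the low dose arrays and 10.34 and 9.97 on the control arrays. High and low dose did not overlap, the difference of -0.45 ± 0.12 (1.36-fold lower) was the largest of the list, and control replicate 2 lay near the high dose arrays. Its other probe set gave -0.19. The transcription factor Xbp1 had 12.33 and 12.48 on the high dose arrays, against 12.64 and 12.75 on the low dose arrays and 12.70 and 12.61 on the control arrays. Here both high dose arrays were below all the others, with a difference of -0.29 ± 0.10; its 3 other probe sets ran from -0.45 to 0.13. Creld2, a disulfide isomerase-like protein induced by stress in this compartment, had 9.36 and 9.42 on the high dose arrays, against 9.58 and 9.77 on the low dose arrays and 9.67 and 9.62 on the control arrays, a difference of -0.28 ± 0.10 with both high dose arrays lowest.

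Sdf2l1, a cofactor of Hspa5, had 9.08 and 9.17 on the high dose arrays, against 9.37 and 9.58 on the low dose arrays and 9.31 and 9.31 on the control arrays, and both high dose arrays were again the lowest (-0.34 ± 0.10). The disulfide isomerase Pdia4 differed by -0.32 ± 0.11 (other probe set 0.077), the secreted stress protein Manf by -0.29 ± 0.11 and Herpud1, a membrane protein of the degradation complex, by -0.26 ± 0.10. The calcium-binding lectin Calr differed by -0.25 ± 0.11, the Hspa5 partner Dnajc3 by -0.24 ± 0.11 and the oxidase Ero1a by -0.22 ± 0.10. None of these 6 genes had overlapping groups. Of the upstream sensors, Ern1 had a difference of -0.21 ± 0.11, Eif2ak3 of -0.12 ± 0.11 and Atf6 of 0.0055 ± 0.11. Of the branch that runs through Eif2ak3, the transcription factors Atf4 and Ddit3 had differences of -0.12 ± 0.11 and -0.15 ± 0.10, while Atf3 and Trib3 were not above the filter.

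With RIN as a covariate the differences were -0.40 for Sdf2l1, -0.30 for Creld2, -0.28 for Xbp1 and -0.46 for Hspa5, but -0.19 for Syvn1, -0.10 for Calr and -0.15 for Pdia4. With the hybridization date as a block the values were -0.36, -0.29, -0.30 and -0.36 for Sdf2l1, Creld2, Xbp1 and Hspa5, and -0.31 for Syvn1.

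**Figure D2:**
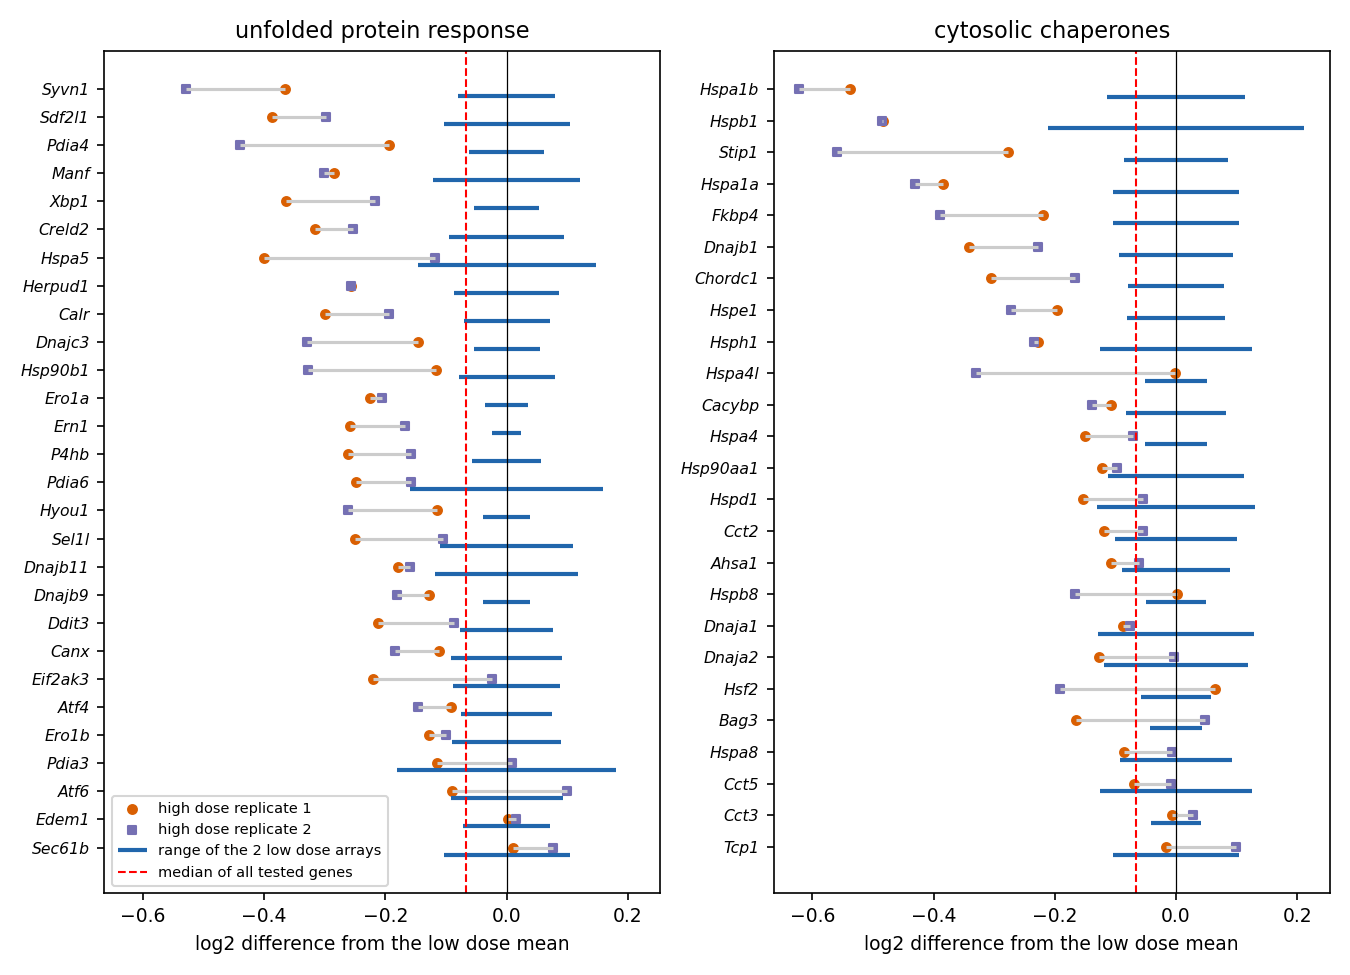
Tested members of the unfolded protein response (left) and of the cytosolic chaperones (right), sorted by their mean difference. Points give the log2 difference of each high dose array from the low dose mean, the blue bars span the 2 low dose arrays, and the dashed line is the median of all tested genes; Syvn1, Hspa1b, Hspb1 and Stip1 lie farthest to the left.

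By median and overlap the cytosolic chaperones as a list stood little apart from all genes, but more of them were lower at an unadjusted p under 0.05. Hspa1b, Hspb1 and Stip1 had large negative differences. Of 25 tested members 23 had the lower mean, the median difference was -0.11, and the arrays did not overlap, with high below low, in 11 (44%, against 37.3% of all genes). At an unadjusted p under 0.05 there were 9 lower genes and 0 higher, where 5.96% of all genes were lower. Both high dose arrays were the lowest of the 6 in 6 of the 25 (24%), beside 10.5% of all genes. The list's median was -0.21 without low dose replicate 1 and -0.034 without low dose replicate 2, beside -0.12 and -0.021 for all genes, and after quantile normalization it was -0.037, beside -0.0032 for all genes.

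Hspa1b, an inducible cytosolic chaperone of the Hsp70 family, had 10.69 and 10.61 on the high dose arrays, against 11.12 and 11.34 on the low dose arrays and 11.06 and 10.83 on the control arrays. Both high dose arrays were below all others, and the difference of -0.58 ± 0.11 (1.5-fold lower) came with the lowest adjusted p of the comparison, 0.258 by limma. Its 2 other probe sets each gave -0.73. Hspa1a is a near-identical copy of it, so signal may be shared between them; it had 9.15 and 9.11 on the high dose arrays, against 9.43 and 9.64 on the low dose arrays and 9.39 and 9.31 on the control arrays, a difference of -0.41 ± 0.10. Hspb1, a small heat shock protein that binds unfolding clients, had 9.37 and 9.37 on the high dose arrays, against 9.64 and 10.06 on the low dose arrays and 9.60 and 9.30 on the control arrays. Its high dose arrays lay below both low dose arrays, whose spread was wide, and control replicate 2 was lower still; the difference was -0.48 ± 0.12, and the other probe set gave -0.54. Dnajb1, an Hsp40 that delivers clients to Hsp70, had 11.10 and 11.22 on the high dose arrays, against 11.35 and 11.54 on the low dose arrays and 11.48 and 11.56 on the control arrays. Both high dose arrays were the lowest, with a difference of -0.28 ± 0.11 and -0.32 at the other probe set.

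Stip1, which links Hsp70 to Hsp90, differed by -0.42 ± 0.12, and the Hsp90 cochaperone Fkbp4 by -0.30 ± 0.12. For Fkbp4 the mean of its probe sets gave -0.065. The Hsp90-binding protein Chordc1 gave -0.24 ± 0.10, the mitochondrial cochaperone Hspe1 -0.23 ± 0.11 and the Hsp110 protein Hsph1 -0.23 ± 0.11. In each of these 5 genes high lay below low without overlap. The constitutive Hspa8 differed by -0.047 ± 0.11 and the chaperonin subunits Cct3 and Tcp1 by 0.011 ± 0.10 and 0.041 ± 0.11. Hspa1b, Hspb1, Dnajb1 and Hspa1a kept differences of -0.44, -0.35, -0.40 and -0.38 with RIN as a covariate, whereas Stip1 and Fkbp4 had -0.15 and -0.051.

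The heat shock element, the binding motif of heat shock factors, was searched in the same windows as GAANNTTCNNGAA on both strands. It was held by 4 of the 23 tested chaperone genes with a window (17.4%), Hsph1, Hspe1, Hspd1 and Chordc1, and by 179 of 27025 genes (0.662%), in 198 of 32851 windows (0.603%); in 0 of these did it overlap another motif searched. Hspe1 and Hspd1 are neighbours that start away from each other and share 1 stretch with the element. The letters are given for the 3 other than Hspd1, with the motif in capitals, as 250 bases before the start for Hspe1 and as 30 bases around the motif for Hsph1 and Chordc1, where it lies at or past the start.
Hsph1, chr5:149636287-149636316, reverse strand: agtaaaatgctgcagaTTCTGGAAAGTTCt
Hspe1, chr1:55087898-55088147, forward strand: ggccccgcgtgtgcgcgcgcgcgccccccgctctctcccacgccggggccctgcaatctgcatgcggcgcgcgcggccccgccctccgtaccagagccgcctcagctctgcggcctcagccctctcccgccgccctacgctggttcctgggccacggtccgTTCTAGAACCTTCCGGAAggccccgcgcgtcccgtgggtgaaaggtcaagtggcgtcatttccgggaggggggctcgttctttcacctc
Chordc1, chr9:18292259-18292288, forward strand: accgGAACGTTCGGGAAAATTCCTGAAgca
The 4 genes had a median difference of -0.23, all lower at the high dose, and the 19 with a window and no such letters had -0.087, with 17 lower. The ranges overlapped, with -0.24 to -0.10 for the 4 and -0.58 to 0.041 for the 19. Hspa1b, with the largest difference of the list, was among the 19. The share with the element describes the list and is no result of the dose comparison.

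The widest single difference between the doses was that of Avp, a hormone gene. Avp, which encodes vasopressin and is made in hypothalamic nuclei, had 8.01 and 8.21 on the high dose arrays, against 9.32 and 8.40 on the low dose arrays and 7.80 and 8.00 on the control arrays. Both low dose arrays were above the other 4, but low dose replicate 1 stood well above replicate 2, and the high dose arrays lay near the control arrays. The difference of -0.75 ± 0.17 (1.68-fold lower) had an adjusted p of 0.529 by limma, and without low dose replicate 1 it was -0.29. Pmch, the precursor of melanin-concentrating hormone, had 7.79 and 7.75 on the high dose arrays, against 8.07 and 8.40 on the low dose arrays and 7.71 and 7.99 on the control arrays, again with low dose above all others and a difference of -0.46 ± 0.12. Oxt, the oxytocin precursor, had 8.93 and 8.78 on the high dose arrays, against 9.26 and 8.98 on the low dose arrays and 8.99 and 8.90 on the control arrays, a difference of -0.26 ± 0.11. Gh, the growth hormone gene of the pituitary, ran the other way, with 8.12 and 8.32 on the high dose arrays, against 7.76 and 7.78 on the low dose arrays and 7.71 and 7.83 on the control arrays. Both high dose arrays were above all others, the difference was 0.45 ± 0.10 (1.37-fold higher, adjusted p 0.529 by limma), and its 3 other probe sets gave 0.59 to 0.80. Gh and Pmch lay near or below the array median (7.79 to 7.80) on several arrays. Neither passed a filter that asked for a level above it on all 6 arrays. Of the 11 tested genes of hypothalamus and pituitary 10 had the lower mean, with a median of -0.12; 15 of the list, among them Agrp, Hcrt, Trh and Prl, were not tested, and so how far such tissue was in each pool was not tested.

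With the date as a block, Avp (-0.85, adjusted p 2.13e-12 by limma), Pmch (-0.52, adjusted p 0.00312) and Hspa1b (-0.50, adjusted p 0.00439) passed, as 3 of 11743 genes (0.0255%). On the arrays of the first date alone 9 genes passed (0.0766%), all lower: Avp, Hspa1b, Hspb1, the potassium channel gene Kcnj13, Bsg, Htr2c, Psmb7, Kl and Tcf7l2. In both of these fits all genes shared 1 estimate of the spread, in the second from the low dose pair alone, so that a gene that varies more than most between pools, as Avp did between the low dose pools, may get too small a p. With the replicate number as a block 45 genes passed (0.383%) and with limma's trend and robust settings 25 (0.213%).

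The striatum list, genes of medium spiny neurons, had 12 of 14 tested members lower, with a median of -0.18. Ppp1r1b, the dopamine-regulated phosphatase inhibitor, had 9.08 and 8.74 on the high dose arrays, against 9.23 and 9.44 on the low dose arrays and 9.32 and 9.12 on the control arrays, and its difference was -0.42 ± 0.12. The neuropeptide precursors Penk and Tac1 differed by -0.30 ± 0.13 and -0.29 ± 0.12 (0.051 at the other probe set of Tac1), and the G protein subunit Gng7 by -0.33 ± 0.12. The list's median was -0.068 on the first date and -0.25 for the later array, so that most of it came from high dose replicate 2. Of the thalamus list 10 of 17 were lower, with a median of -0.045; its vesicular glutamate transporter Slc17a6 gave -0.32 ± 0.13, with 0.12 at its other probe set, and its transcription factor Tcf7l2 -0.29 ± 0.13. For neocortex markers the median was -0.023.

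**Figure D3:**
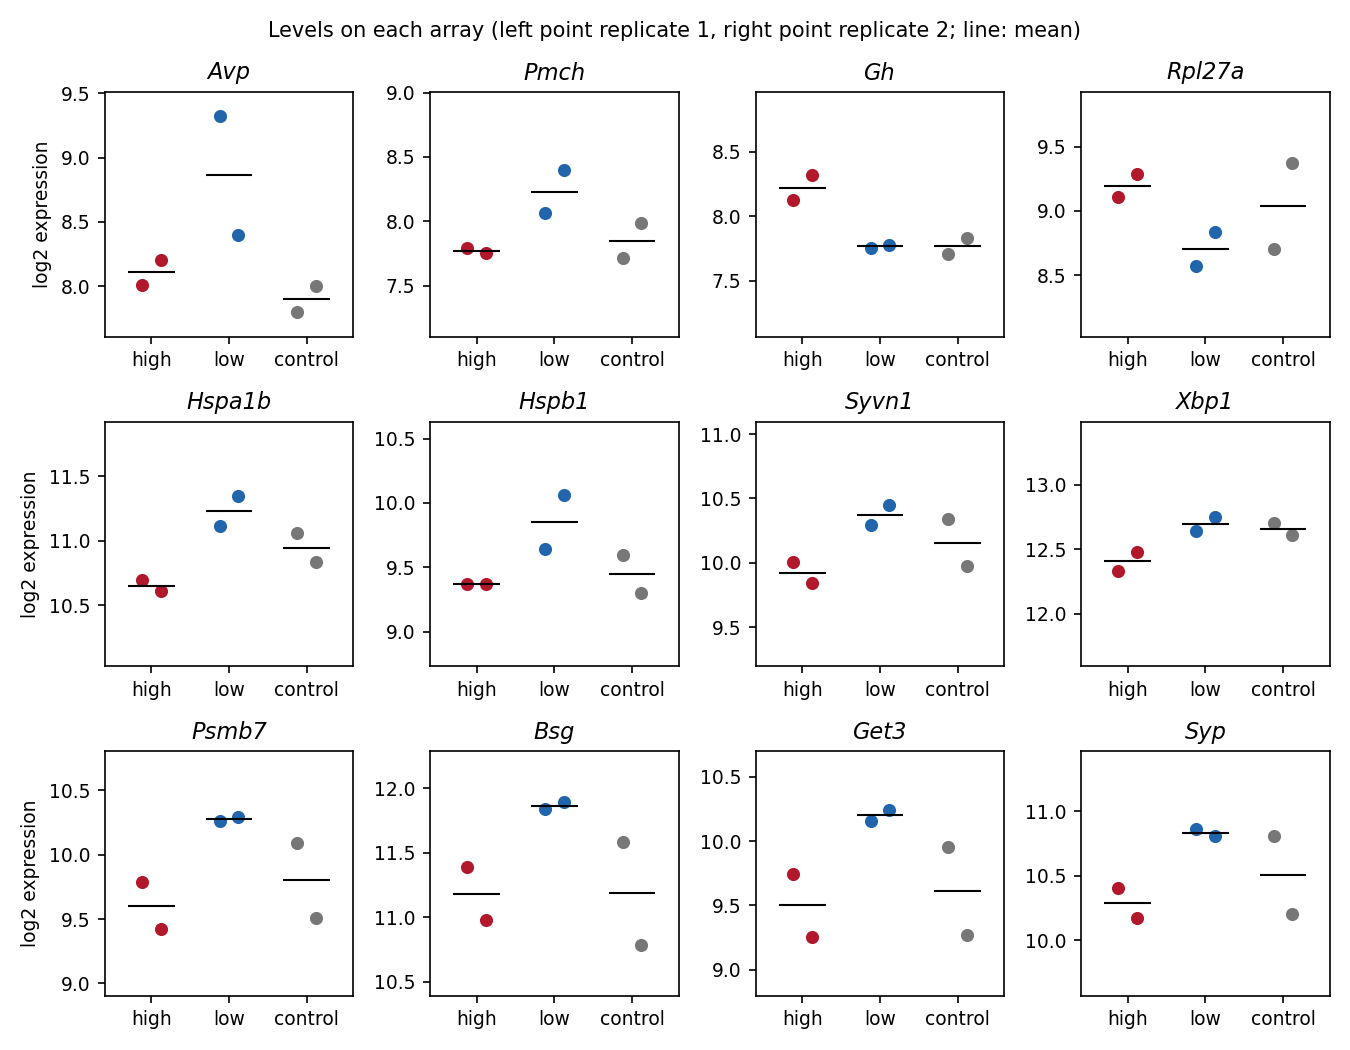
Log2 expression of 12 genes on each array, as high dose, low dose and control; the left point of a pair is replicate 1, the right point replicate 2, and the line is the mean. The vertical span is the same in all panels. Hspa1b, Hspb1, Syvn1 and Xbp1 were lower on both high dose arrays than on either low dose array, Gh was higher, and in Psmb7, Bsg, Get3 and Syp the later-date arrays, replicate 2 of high dose and of control, were the lowest.

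The genes with the largest other negative differences were a mixed set. By the rule for named genes, 136 lower and 7 higher genes had an unadjusted p under 0.01 and no overlap, and the 15 lower with the largest change were Avp, Mlf2, Get3, Bsg, Psmb7, Tecr, Hspa1b, Ly6e, Map1a, Syp, Rnf167, Pfn1, Pcsk1n, Podxl2 and Malat1. High dose replicate 2 was the lower of the high dose pair in 124 of the 136 (91.2%, against 51.5% of all tested genes). The median difference was -0.29 for high dose replicate 1 and -0.46 for high dose replicate 2. Control replicate 2 also lay below both low dose arrays in 135 of the 136 (99.3%, against 60.2% of all tested genes). Control replicate 1 did so in 80 (58.8%, against 18.6%). The rule picks genes with high values on both low dose arrays, so part of these excesses over all genes may come from the rule itself.

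Psmb7, a catalytic subunit of the proteasome, had 9.79 and 9.42 on the high dose arrays, against 10.26 and 10.29 on the low dose arrays and 10.09 and 9.51 on the control arrays. Its low dose arrays were nearly equal and above all others, it had the widest gap between the groups of all lower genes, and its difference was -0.67 ± 0.14 (1.59-fold lower). It was the only proteasome subunit lower at an unadjusted p under 0.05, and the 37 tested proteasome subunits had a median of 0.0011, with 18 lower. Bsg, a chaperone of lactate transporters at the cell surface, had 11.39 and 10.98 on the high dose arrays, against 11.84 and 11.89 on the low dose arrays and 11.59 and 10.79 on the control arrays. Get3, the ATPase that inserts tail-anchored proteins into the endoplasmic reticulum, had 9.75 and 9.26 on the high dose arrays, against 10.16 and 10.24 on the low dose arrays and 9.96 and 9.27 on the control arrays. In both genes control replicate 2 matched high dose replicate 2 more closely than the other control array; the differences were -0.68 ± 0.16 for Bsg and -0.70 ± 0.16 for Get3.

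Syp, the synaptic vesicle protein synaptophysin, had 10.41 and 10.17 on the high dose arrays, against 10.86 and 10.80 on the low dose arrays and 10.81 and 10.20 on the control arrays, a difference of -0.54 ± 0.14, but its other probe set gave 0.15. Mlf2 differed by -0.72 ± 0.19, the fatty acid elongation enzyme Tecr by -0.60 ± 0.15, the GPI-anchored protein Ly6e by -0.57 ± 0.17 and the microtubule-binding protein Map1a by -0.56 ± 0.15. The other probe set gave -0.49 for Tecr, -0.13 for Ly6e and -0.047 for Map1a. For the nuclear noncoding RNA Malat1 the 7 probe sets ran from -0.50 to 0.15. Of the genes with the widest gap that the first rule did not name, the coat protein Copg1 gave -0.45 ± 0.12, the calcium-binding S100a1 -0.47 ± 0.14 and Gfod1 -0.40 ± 0.11. Other probe sets gave -0.18 and 0.018 for Copg1, -0.33 for S100a1 and -0.14 for Gfod1. With the date as a block the differences were -0.43 for Psmb7, -0.40 for Get3, -0.38 for Bsg and -0.34 for Mlf2, and with RIN as a covariate -0.19, -0.12, -0.047 and 0.022 in the same order. Gfod1 had 10.72 and 10.69 on the high dose arrays, against 11.10 and 11.10 on the low dose arrays and 11.21 and 10.97 on the control arrays, and kept -0.33 and -0.22 in these fits.

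Few genes were higher at the high dose. The 7 that met the rule were Rpl27a, Gh, Pde1a, Lrp1b, Dcn, Epha5 and Ube3a. Rpl27a, a protein of the large ribosomal subunit whose processed copies in the genome can share signal, had 9.11 and 9.29 on the high dose arrays, against 8.57 and 8.84 on the low dose arrays and 8.70 and 9.38 on the control arrays. Its difference was 0.49 ± 0.15, its other probe set gave 0.14, and the 46 tested ribosomal protein genes had a median of -0.027. Pde1a, a calmodulin-dependent phosphodiesterase, differed by 0.42 ± 0.14 with -0.042 at its other probe set, the lipoprotein receptor Lrp1b by 0.41 ± 0.14 with -0.078 and -0.034, the ephrin receptor Epha5 by 0.37 ± 0.12 with -0.11 to 0.027, and the ubiquitin ligase Ube3a by 0.35 ± 0.13 with -0.036 to 0.24. In these 4 genes the difference of high dose replicate 1 was 0.14 or less (0.10, 0.087, 0.14 and 0.090). Smaller differences of like size from the low dose mean were seen on both high dose arrays in 3 further genes. Ly6g6e had 8.05 and 8.01 on the high dose arrays, against 7.81 and 7.79 on the low dose arrays and 7.91 and 7.95 on the control arrays, a difference of 0.23 ± 0.10. Its low dose levels lay near the medians of those arrays (7.80 and 7.79), and it did not pass the filter over all 6 arrays. Ighmbp2, a helicase, had 8.49 and 8.55 on the high dose arrays, against 8.29 and 8.22 on the low dose arrays and 8.39 and 8.42 on the control arrays, a difference of 0.26 ± 0.10 with 0.11 to 0.16 at its other probe sets. Cidea, a lipid droplet protein, had 8.99 and 9.04 on the high dose arrays, against 8.82 and 8.84 on the low dose arrays and 8.82 and 8.77 on the control arrays, a difference of 0.19 ± 0.10. In all of them both high dose arrays were the highest of the 6, as in 184 of all tested genes (1.57%).

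Myelin genes were lower at the high dose, or higher at the low dose, in every tested member. All 17 tested genes of oligodendrocytes and myelin had the lower mean, 15 without overlap (88.2%, against 37.3% of all genes), and the median difference was -0.26. At an unadjusted p under 0.05 there were 11 lower genes, where 5.96% of all genes were lower. In 14 of the 17 both low dose arrays were above the other 4 arrays, which held for 924 of all tested genes (7.87%), and in 0 were both high dose arrays the lowest. Relative to the low dose mean, the list's median was -0.16 and -0.37 on the high dose arrays and -0.14 and -0.32 on the control arrays. Replicate 1 of high dose and of control, from the first date, thus lay alike, and so did replicate 2. Mag, an adhesion protein of the inner myelin membrane, had 9.83 and 9.51 on the high dose arrays, against 10.08 and 10.07 on the low dose arrays and 9.97 and 9.53 on the control arrays (-0.40 ± 0.13). The myelin enzyme Cnp had 13.42 and 13.21 on the high dose arrays, against 13.57 and 13.74 on the low dose arrays and 13.47 and 13.28 on the control arrays (-0.34 ± 0.11). Mog, a protein of the outer myelin surface, had 9.51 and 8.87 on the high dose arrays, against 9.57 and 9.66 on the low dose arrays and 9.50 and 9.09 on the control arrays (-0.43 ± 0.15), so that high dose replicate 1 lay only just below the low dose arrays. Ermn, Mal and Mobp differed by -0.34 ± 0.11, -0.35 ± 0.12 and -0.27 ± 0.11, and Mbp, the main myelin basic protein gene, by -0.15 ± 0.11, with -0.54 to -0.10 at its 7 other probe sets. The list's median was -0.16 on the first date, -0.37 for the later array and -0.17 with the date as a block.

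**Figure D4:**
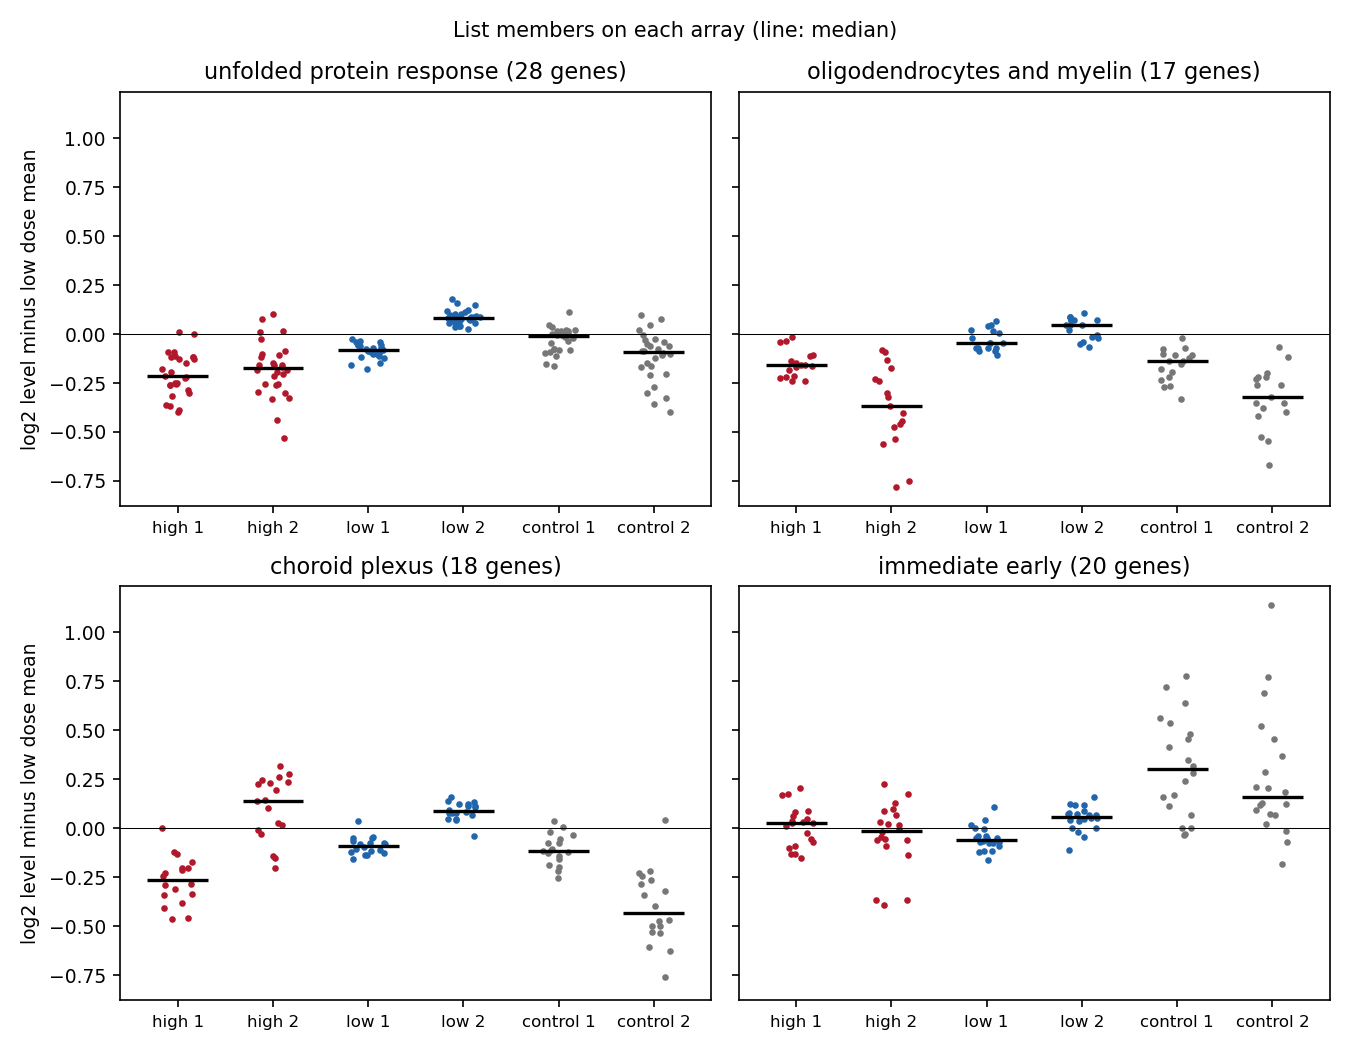
Members of 4 gene lists on each array, as the log2 level minus the mean of the 2 low dose arrays; points are genes and lines are medians. By these medians both high dose arrays were lowest for the unfolded protein response, myelin genes were lower on all 4 other arrays than on the low dose arrays, choroid plexus genes differed between the high dose arrays, and immediate early genes lay near 0 on the high dose arrays and higher on the control arrays.

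Choroid plexus markers set the high dose arrays apart from each other. Their median difference was -0.26 for high dose replicate 1, with 17 of 18 lower (78.2% of all tested genes were), and 0.14 for high dose replicate 2, with 5 of 18 lower. Kl, the anti-ageing membrane protein klotho, had 9.37 and 9.80 on the high dose arrays, against 9.72 and 9.94 on the low dose arrays and 9.64 and 9.07 on the control arrays, and its other probe set gave a difference of 0.031. The carbonic anhydrase Car12 differed by -0.30 ± 0.12 and Igfbp2 by -0.27 ± 0.13, whereas Ttr, the most abundant product of that epithelium, differed by 0.018 ± 0.13. The 2 other probe sets of Car12 gave -0.00057 and 0.066. Htr2c, a serotonin receptor that this epithelium also expresses, had 10.90 and 11.28 on the high dose arrays, against 11.28 and 11.48 on the low dose arrays and 11.13 and 11.12 on the control arrays; its difference of -0.29 ± 0.12 was -0.48 on the first date and -0.099 for the later array. Its value moved with those markers, and their part in it was not tested. The medians of the other cell types were as follows: dentate granule cells had -0.078, CA1 pyramidal cells -0.091, CA2 and CA3 pyramidal cells -0.089, GABA interneurons -0.071, astrocytes -0.11, microglia -0.079, endothelial cells -0.060, pericytes -0.072, oligodendrocyte precursors -0.11, immature neurons -0.088 and meninges -0.012. Ependymal cells had 0.037, with 7 of 10 members higher, where 22.8% of all genes were. Gad1, which makes GABA, differed by -0.29 ± 0.11, the interneuron calcium buffer Calb2 by -0.30 ± 0.12, and Dcn, a matrix proteoglycan of meninges and of CA1, by 0.37 ± 0.13 with -0.093 at its other probe set.

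Of signalling genes, those of cAMP and CREB stood lowest. Of 22 tested members 21 had the lower mean (77.2% of all tested genes did), 11 without overlap (50%, against 37.3%), and the median was -0.16. The transcription factor Creb1 had 10.50 and 10.33 on the high dose arrays, against 10.65 and 10.73 on the low dose arrays and 10.77 and 10.42 on the control arrays. Its difference of -0.27 ± 0.11 rested on 1 probe set, for the mean of all its probe sets was 0.037. The coactivator Crtc1 differed by -0.24 ± 0.12, the phosphodiesterase Pde4b by -0.25 ± 0.11, the adenylyl cyclase Adcy5 by -0.25 ± 0.11 and the kinase subunit Prkar1b by -0.22 ± 0.10. With RIN as a covariate Creb1 and Crtc1 had -0.0083 and 0.046. Genes of synaptic vesicle release had a median of -0.10, with 20 of 23 lower and 10 without overlap (43.5%, against 37.3%), near the share of all genes. The active zone scaffold Bsn differed by -0.32 ± 0.12, the vesicle fusion protein Vamp2 by -0.30 ± 0.13, the vesicle phosphoprotein Syn1 by -0.29 ± 0.11 and Rims1 by -0.27 ± 0.11. With RIN as a covariate these were -0.051 for Bsn, 0.11 for Vamp2, -0.034 for Syn1 and -0.12 for Rims1. Of the 3 members with the higher mean, Sv2a and Stx1a lay within 1 SE of 0, and Cplx2 was at 0.42 ± 0.21, for which high dose replicate 1 had -0.17 and replicate 2 had 1.02, and whose 2 other probe sets gave -0.33 and -0.31. Voltage-gated channels had a median of -0.12, with 25 of 29 lower, where 77.2% of all genes were. The calcium channel subunit Cacnb2 and the sodium channel subunit Scn3b differed by -0.23 ± 0.10 and -0.23 ± 0.11. GABA-A receptors had -0.10 over 8 genes, and ionotropic and metabotropic glutamate receptors -0.10 over 14 and -0.028 over 6.

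None of the tested targets of the drug or genes usually followed after antidepressants passed the test between the doses. Among 30 such genes 24 could be tested, of which 0 passed (limma, as for all genes); Slc6a4, the serotonin transporter, and Mki67 were not above the filter, and the others were not analysed here. The noradrenaline transporter Slc6a2 differed by -0.058 ± 0.10. Its levels of 7.68 to 7.88 lay near the array median (7.79 to 7.80), and it did not pass the filter over all 6 arrays, so this value says little. The list of monoamine transport and metabolism had a median of -0.028 over 10 genes. All 8 tested serotonin receptors had the lower mean, as did 77.2% of all tested genes. Their median was -0.10, beside -0.066 for all genes. Besides Htr2c, Htr4 gave -0.21 ± 0.12, with 0.063 at its other probe set, and Htr1a -0.13 ± 0.11. The neurotrophin Bdnf had 10.40 and 10.32 on the high dose arrays, against 10.21 and 10.36 on the low dose arrays and 10.38 and 10.16 on the control arrays, and high dose and low dose overlapped. The glucocorticoid receptor Nr3c1 differed by -0.11 ± 0.10, its cochaperone Fkbp5 by -0.14 ± 0.10, Dcx, a marker of young neurons, by 0.18 ± 0.10 and Gfap, the astrocyte filament, by -0.028 ± 0.10.

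Immediate early genes, which neurons switch on with activity, had a median near 0 between the doses, above that of all genes. Of 20 tested members 10 were lower and 10 higher, with a median of -0.0030. Without overlap, 2 (10%) had high below low, against 37.3% of all genes, and 2 (10%) high above low, against 3.98%. After quantile normalization the median was 0.076, with 5 of 20 lower, beside -0.0032 for all genes. Egr2 had 8.01 and 8.01 on the high dose arrays, against 7.94 and 7.90 on the low dose arrays and 8.64 and 9.06 on the control arrays, so that both doses lay below the control arrays and differed by 0.090 ± 0.12. Egr1 had 12.42 and 12.62 on the high dose arrays, against 12.32 and 12.46 on the low dose arrays and 12.95 and 13.16 on the control arrays (0.13 ± 0.11). For Fos the difference was 0.022 ± 0.11, for Arc 0.15 ± 0.11 and for Npas4 0.099 ± 0.11, while Egr3 was the lowest at -0.25 ± 0.11. A p that misses the threshold with 2 arrays per group does not show that the doses act alike.

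Among genes of energy supply, glycolysis had 15 of 17 tested members lower, where 77.2% of all genes were. In 11 there was no overlap (64.7%, against 37.3%), and the median was -0.12. Pkm, the last enzyme of glycolysis, had 11.90 and 11.53 on the high dose arrays, against 12.17 and 12.25 on the low dose arrays and 12.11 and 11.52 on the control arrays (-0.50 ± 0.14). The phosphofructokinase Pfkl, the neuronal glucose transporter Slc2a3 and the enolase Eno2 differed by -0.41 ± 0.12, -0.30 ± 0.10 and -0.25 ± 0.11. With RIN as a covariate the differences were -0.021 for Pkm, -0.046 for Pfkl, -0.15 for Slc2a3 and -0.035 for Eno2. Respiratory chain genes had a median of -0.022, with 50 of 73 lower and 5 without overlap (6.85%), and cytosolic ribosomal proteins had 31 of 46 lower and 5 without overlap (10.9%). In these lists low dose replicate 2 stood above replicate 1, in 73 of 73 and 44 of 46 genes.

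Of the 46 lists described, 25 had a median below that of all tested genes and 3 had one above 0. The lists not yet named had medians from -0.12 (nuclear long noncoding RNAs) and -0.077 (circadian clock) over -0.061 (MAP kinase feedback), -0.054 (cholesterol synthesis), -0.054 (splicing regulators), -0.047 (Kruppel-like factors), -0.045 (neurotrophins and growth factors), -0.040 (housekeeping) and -0.034 (glucocorticoid response) to -0.025 (interferon response). Neuropeptide receptors had -0.065. Red blood cell genes and adrenergic and dopamine receptors had 2 tested genes each, with medians of -0.077 and 0.012.

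**Figure D5:**
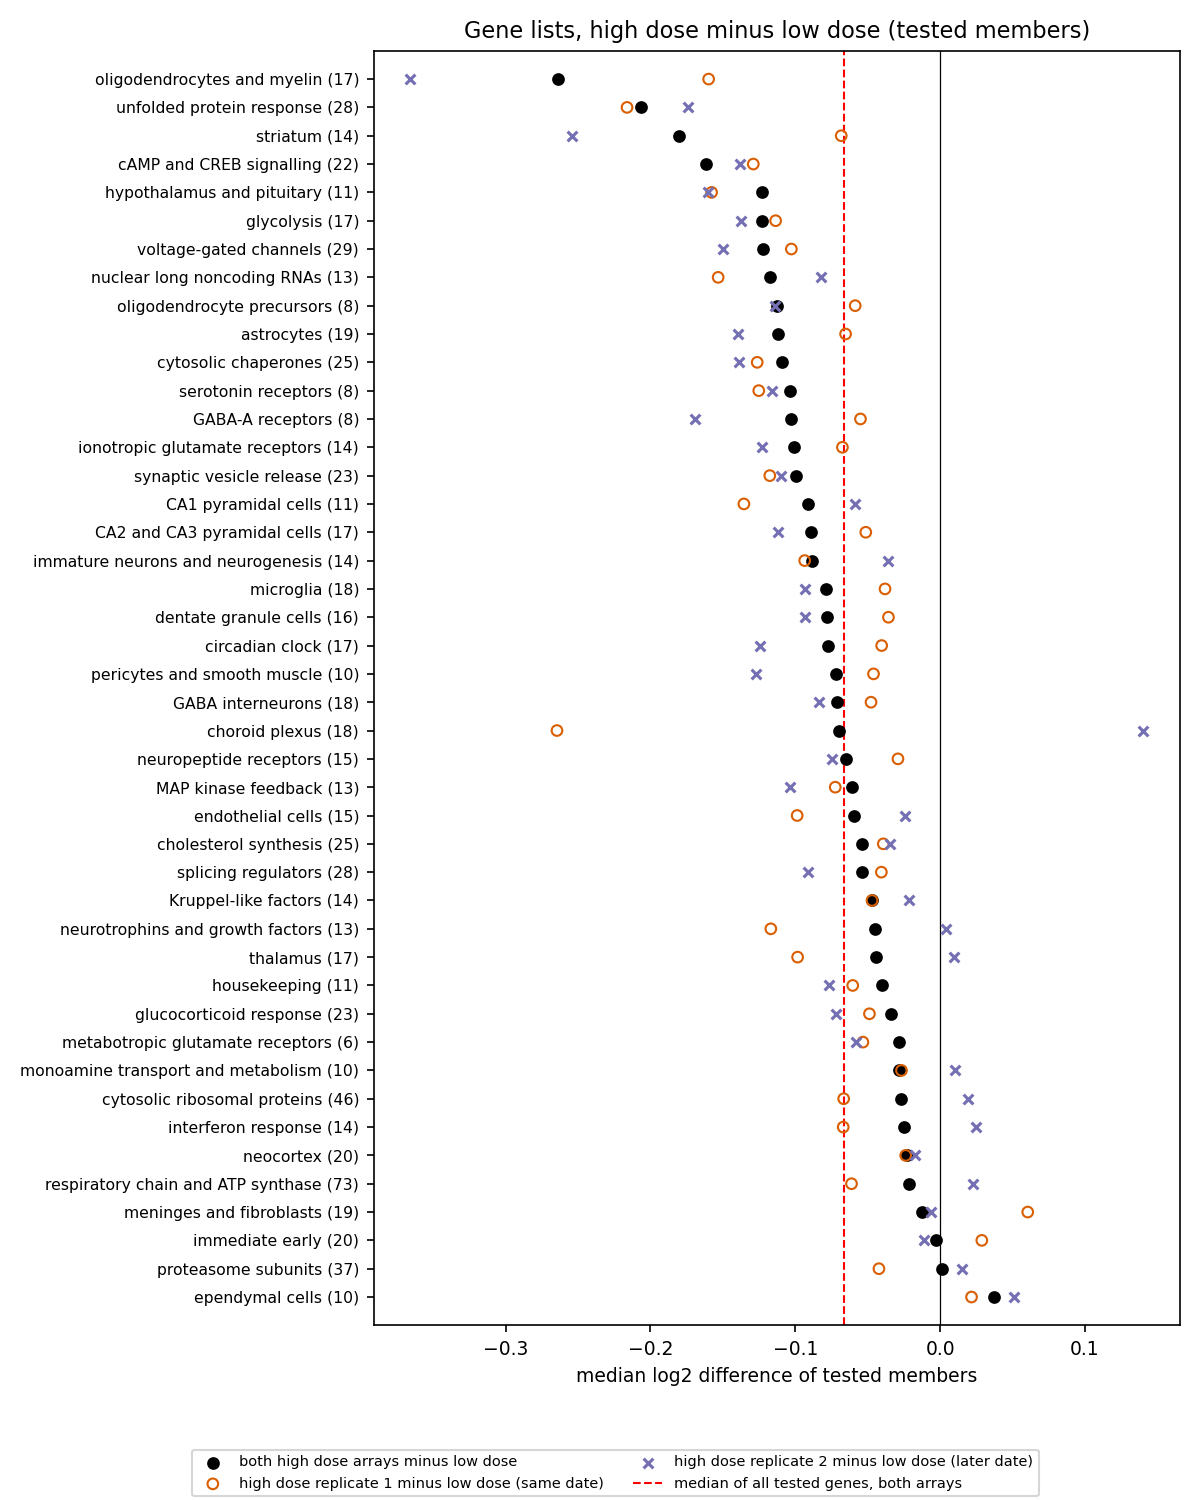
Median log2 difference of the tested members of each list with at least 5 tested genes (number in brackets), for both high dose arrays (filled), for high dose replicate 1 on the date of the low dose arrays (open) and for high dose replicate 2 on the later date (cross). The dashed line at -0.066 is the median of all tested genes. The unfolded protein response lay left of it for both high dose arrays. Myelin and striatum lay farthest left for the later array, and choroid plexus had its arrays on opposite sides.

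The 2 high dose arrays also differed from each other, in single genes by more than the doses did. High dose replicate 2 was above replicate 1 by 1.19 for Cplx2, 1.13 for the splicing cofactor Srrm2, 1.04 for the adhesion receptor Adgra1 and 0.95 for the RNA export factor Thoc2, and below it by 0.77 for the myelin junction protein Cldn11 and 0.75 for Mlf2. Srrm2 had 11.07 and 12.20 on the high dose arrays, against 11.24 and 11.24 on the low dose arrays and 11.49 and 11.97 on the control arrays, and Thoc2 had 9.57 and 10.53 on the high dose arrays, against 9.53 and 9.55 on the low dose arrays and 9.84 and 10.36 on the control arrays. In both genes replicate 2 of high dose and of control, the arrays of the later date, were the highest, but the other probe sets of Srrm2 gave high minus low differences of -0.27 and -0.16 and those of Thoc2 gave -0.22 and 0.40. Only 1 pair of arrays shared both side and date across the doses, the left pools on the first date, and between these all genes had a median difference of -0.12, the unfolded protein response -0.29 and the chaperones -0.22. For the right pools, which differed in date, these medians were -0.023, -0.11 and -0.056.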

How the data were processed

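Values were deposited as log2 signals that the authors made by RMA in R 3.0.1, per the submitters' processing notes; they started from 100 ng of total RNA per array, per the labels' protocols. RMA corrects background, quantile-normalizes probes and summarizes each probe set. The genome build is not given in the sources used here, so coordinates are printed only for RefSeq promoter windows (GRCm38.p6).

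Of 45101 probe sets, 64 controls, 932 with several symbols and 9160 with none were left out of the gene values, which leaves 34945. Each gene took its probe set with the highest mean over all arrays, and 9010 of 18193 genes had several. Other probe sets are quoted for a part of the genes named, so a value may rest on 1 probe set. Genes above the array median on at least 2 arrays were tested with limma 3.58.1 in R 4.3.3 on the 6 arrays, 1 coefficient per dose group, Benjamini-Hochberg threshold 0.05. P-values measure only the spread between pools. Medians of lists are descriptions without a test.

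Genes named are up to 15 per direction by change at an unadjusted p under 0.01 without overlap, up to 8 per direction by gap and by the difference between the high dose arrays, the panel, and up to 4 per list by moderated t. Of these the text gives a part, and it names further list members that were chosen after their values were seen. The members and lists were chosen with earlier results of these data known. Alternatives were other filters, probe set means, centring, quantile normalization, date, side, replicate number and RIN as terms, fewer arrays, and limma's trend and robust settings. The differences between replicate 2 and replicate 1 correlated at 0.0765 between control and low dose, 0.540 between control and high dose and 0.133 between low and high dose, so the numbers were not taken to pair the arrays.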

Additional observations from a re-analysis of the deposited data

How the results depend on the processing

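The count of genes past the adjusted threshold stayed at 0 without a filter, with a stricter filter, with probe set means, with centred arrays and with quantile normalization (828, 735, 484, 698 and 517 genes at an unadjusted p under 0.05, limma). It was 3 with the date as a block, 9 on first-date arrays only, 11 with side, 1 with side and date, 4 with RIN, 25 with limma's trend and robust settings and 152 on high and low dose arrays only. The replicate block, a pairing that the numbers do not bear out, called 45 genes (8 higher, 37 lower). Leaving out 1 array gave 0 to 152: 117 without high dose replicate 1, 1 without high dose replicate 2, 0 without either low dose array and 152 without either control array. In most of these fits all genes share 1 spread. At an unadjusted p under 0.05 there were 321 genes with the date as a block, 125 with side and date, 202 with RIN, 1346 on the 4 arrays and 58 (without low dose replicate 2) to 1346 with 1 array left out; without high dose replicate 2 there were 158 and without low dose replicate 1 364. Quantile normalization split them as 155 higher and 362 lower, against 29 and 700.

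With 1 array left out the median of the chaperones ran from -0.21 (without low dose replicate 1) to -0.034 (without low dose replicate 2). That of myelin was -0.17 with quantile normalization, with the date as a block and with side and date, -0.16 on the first date and -0.14 with RIN, and ran from -0.37 (without high dose replicate 1) to -0.16 (without high dose replicate 2). That of the unfolded protein response moved by less than the spread of the list's median level between arrays of a group, under all alternatives run. This bound is wide, for the median level was 10.64 and 10.86 on the low dose arrays. The median difference was -0.12 with quantile normalization and -0.17 with the date as a block. With 1 array left out it ran from -0.28 (without low dose replicate 1) to -0.13 (without low dose replicate 2).

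A difference smaller than its SE was given no direction to reverse. With RIN as a covariate the sign turned for Atf4 (0.034), Cldn11 (0.22), Cplx2 (-0.25), Crtc1 (0.046), Egr1 (-0.085), Htr4 (0.050), Ly6e (0.12), Map1a (0.019), Mlf2 (0.022), Nr3c1 (0.0052), Pcsk1n (0.022), Pfn1 (0.12), Podxl2 (0.011), Rnf167 (0.066), Rpl27a (-0.055), S100a1 (0.018), Srrm2 (-0.21), Thoc2 (-0.079) and Vamp2 (0.11). With the mean of probe sets it turned for Cplx2 (-0.071), Creb1 (0.037) and Srrm2 (-0.012), on the first date and without high dose replicate 2 for Adgra1 (-0.17), Cplx2 (-0.17) and Srrm2 (-0.17), which had 0.87, 1.02 and 0.96 without high dose replicate 1, and with the date as a block or side and date for Srrm2 (-0.0037). The cause was not tested. RIN was lower in both high dose pools than in both low dose pools. The RIN term rests on the differences in RIN within groups. These were widest for the control arrays (8.7 and 7.9), then for the high dose (8.5 and 8.2) and the low dose (9.1 and 8.9). The control pair and the high dose pair also differed in date and side, so the RIN term can hardly be told apart from the date.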
